A study of Homo sapiens with 6 samples.

Results

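The matrix metalloproteinases (MMPs), the ADAM and ADAMTS proteases and their tissue inhibitors (TIMPs) were examined in Hs578T cells with and without CCN3 knockdown. The members were every gene named MMP, ADAM, ADAMTS or TIMP with a number and, for MMPs and ADAMs, an optional letter. The rule found 71 of the 46427 genes in the count table, of which 24 were MMPs, 24 ADAMs, 19 ADAMTSs and 4 TIMPs. RNA was sequenced from 3 libraries of cells with a control shRNA (shCTRL) and 3 libraries of cells with CCN3 shRNA #2 (shCCN3). Hs578T is a mesenchymal human triple-negative breast cancer cell line, grown in DMEM with serum, and both groups were stable lines made by retroviral transduction with a pSUPER vector and puromycin selection. The libraries of a group were described as biological replicates. What was grown apart for them was not stated, so p-values measure the spread between these libraries, which may be partly technical. Only 1 CCN3 shRNA was sequenced, so effects of CCN3 loss and of this shRNA or this selected line cannot be told apart.

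MMPs are zinc proteases that are made as inactive precursors and cut collagens and other proteins of the extracellular matrix, either as secreted enzymes or at the cell surface. ADAMs are mostly membrane proteins that shed the outer parts of growth factors, receptors and adhesion molecules, and several of them lack a working protease site. ADAMTSs are secreted relatives that trim procollagens, cut proteoglycans or bind fibrillin, and TIMPs are small secreted proteins that block these proteases. Breast cancer cells of the mesenchymal type are known for high levels of several of these enzymes, which take part in invasion.

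The libraries held between 56159110 and 68393177 counts. CCN3 itself went from 101 ± 2.43 to 47.0 ± 0.469 CPM (SD, n = 3 each), where CPM stands for counts relative to the library size after scaling with TMM factors, so the knockdown left a part of the mRNA. Between libraries of one group the counts differed beyond counting noise, with a chi-square per degree of freedom of 6.75 to 42.5, and both highest values involved shCCN3 library 2. The mesenchymal markers VIM and FN1 were among the abundant mRNAs, with at least 420506 and 122764 counts in every library, while the epithelial markers CDH1 and EPCAM had at most 9 and 3 counts. The luminal keratins KRT18 and KRT8 were expressed, with 10133 to 14620 and 818 to 1432 counts. Of the receptor genes that define triple-negative cells, ESR1 had at most 10 counts, PGR had 180 to 292 and ERBB2 had 4291 to 5560. CD3E, which marks T cells, and CDH5, which marks endothelium, were listed at 0 in all 6 libraries, but other markers of leukocytes and endothelium were detected, with up to 13 counts for PTPRC, 17 to 49 for CD14, 22 to 71 for KDR and 202 to 273 for PECAM1. None of these 4 had an adjusted p under 0.05 in edgeR.

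Of the 71 members, 44 passed edgeR's filter on low counts and were tested. A gene was called with an adjusted p (Benjamini-Hochberg, over all 17419 genes tested) under 0.05 in edgeR's quasi-likelihood test, which gives every adjusted p below. SE is the standard error of a log2 fold change. In shCCN3 cells, 23 of the 44 tested members (52.3%) were called, and the share over all genes tested was 33.4%. Of these, 6 were higher and 17 were lower, beside 16.2% and 17.3% of all genes tested. A change of at least 2-fold was called for 11 members, 4 higher and 7 lower, while 8.10% of all genes tested were called at that size. Of these 11, MMP13, ADAMTS10, ADAM33, ADAMTS8 and ADAMTS17 passed the filter only through the group where they were higher. With at least 10 counts in every library, 6 members were called at that size. The median log2 fold change over the tested members was -0.16, and that of all genes tested was 0.01. Among genes with a mean of at least 1 CPM, 17 of 30 members (56.7%) were called, 3 higher and 14 lower, beside 37.5% of all genes at that level. Calls were made in 11 of 16 tested ADAMTSs, 6 of 11 MMPs, 5 of 14 ADAMs and 1 of 3 TIMPs. In RNA from a whole culture, fewer cells that express a gene and less RNA per cell cannot be told apart. Every fold change below is given as shCCN3 over shCTRL.

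**Figure D1:**
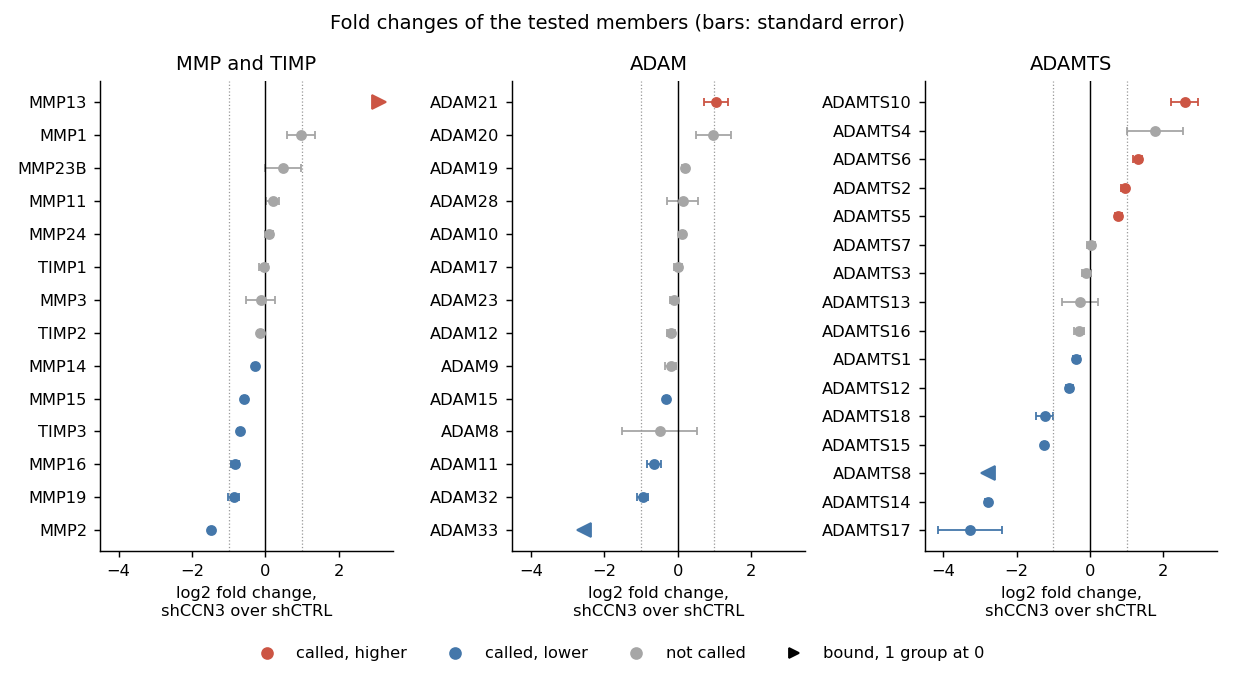
Log2 fold change (shCCN3 over shCTRL) of the 44 tested members, with MMPs and TIMPs, ADAMs and ADAMTSs in 3 panels, points for the edgeR estimate, bars for its standard error and dotted lines at 2-fold. Arrowheads mark MMP13, ADAM33 and ADAMTS8, whose counts were 0 in 1 group and whose position is a bound for counting error only. The called members lie mostly on the lower side, 17 of 23.

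Among the members, the largest loss of mRNA in CPM was that of MMP2, the gelatinase that cuts denatured collagen and type IV collagen. MMP2 was 505, 537 and 540 CPM in the shCTRL libraries and 193, 182 and 191 CPM in the shCCN3 libraries. Every shCCN3 library lay below every shCTRL library, and the libraries within a group were close together. The mean was 2.79-fold lower, with a log2 fold change of -1.48 (SE 0.058, edgeR adjusted p = 3.25e-07). The other gelatinase gene, MMP9, was listed at 0 in all 6 libraries. MMP2 lies on chromosome 16 of GRCh38.p14 from 55478830 to 55506691 on the plus strand, and the median over the 24 tested genes nearest to it was -0.04.

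The membrane-type MMPs, which are anchored in the cell membrane, moved the same way where they were called. MMP14, the surface protease known to activate pro-MMP2 together with TIMP2, was 247, 267 and 262 CPM in the shCTRL libraries and 214, 204 and 220 CPM in the shCCN3 libraries. The groups did not overlap, and MMP14 fell by 0.28 on the log2 scale (SE 0.059, edgeR adjusted p = 0.00551). MMP15 fell by 0.57 (adjusted p = 0.000132) and MMP16 by 0.82 (adjusted p = 0.000480), both from edgeR. MMP16 was 115, 103 and 91.8 CPM in the shCTRL libraries and 61.4, 49.9 and 64.6 CPM in the shCCN3 libraries, so that its within-group spread was wider than that of MMP15, whose 6 values lay between 21.3 and 32.8 CPM. The 24 tested genes nearest to MMP16 on chromosome 8 had a median of 0.43 on the log2 scale, opposite in sign to MMP16 itself. The fourth membrane-type gene tested, MMP24, known from the nervous system, had a log2 fold change of 0.10 (edgeR adjusted p = 0.551) and shares part of its locus with MMP24OS on the other strand, which had 3068 to 4065 counts. MMP17 had 4 counts in 1 shCCN3 library and MMP25 was listed at 0 in all libraries.

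Since MMP2 and MMP14 are genes of different length, their levels were compared as CPM per kb of exon. On that scale the sum over all MMPs was 184 ± 5.81 in shCTRL cells and 98.9 ± 3.37 in shCCN3 cells (SD, n = 3 each). MMP2 made up 58.2 ± 0.472% of that sum in shCTRL cells and 38.7 ± 0.439% in shCCN3 cells, whereas MMP14 made up 31.5 ± 0.327% and 48.2 ± 0.301%. The order of both genes was therefore reversed, with MMP2 the most abundant MMP mRNA per length in every shCTRL library and MMP14 in every shCCN3 library. Without MMP2, the remaining MMPs summed to 74.8, 78.8 and 77.1 CPM per kb in shCTRL and 61.0, 58.2 and 62.7 CPM per kb in shCCN3 libraries, and these did not overlap either. With 3 libraries against 3, an exact permutation test of such a share or sum cannot give a two-sided p below 0.1.

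The remaining MMPs were low. MMP19, a secreted MMP, was the only other called one above 1 CPM and fell from 4.09 ± 0.251 to 2.25 ± 0.346 CPM (SD, n = 3 each), by 0.86 on the log2 scale (edgeR adjusted p = 0.00173). Its locus overlaps TMEM198B on the other strand, whose mean count was 435 in shCTRL and 225 in shCCN3 libraries, and since it is not stated whether counting used the strand, reads of this pair may be shared. MMP11, also called stromelysin-3, had a log2 fold change of 0.20 (edgeR adjusted p = 0.418).

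MMP13, collagenase-3, was listed at 0 in all 3 shCTRL libraries and had 20, 24 and 29 counts in the shCCN3 libraries. It passed the filter on low counts through the shCCN3 libraries alone. MMP13 was called higher (edgeR adjusted p = 0.000591), but the p-value takes no account of that selection. With the shCTRL value set to 3 counts per library, its mean level was at least 8.64-fold higher, for counting error in that 0 only. MMP13 still stayed at 0.392 ± 0.0887 CPM (SD, n = 3) in shCCN3 cells. A 0 in this table need not mean that no read was sequenced. In 219 genes of the table, 1 library of a group was listed at 0 while both others had at least 10 counts, and ADAM8 among the members had 13, 0 and 21 counts in shCTRL and 11, 0 and 12 counts in shCCN3 libraries.

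MMP13 lies at the end of the MMP gene cluster on chromosome 11, which runs from MMP7 at 102520508 to MMP13 at 102955732 in GRCh38.p14 and holds 9 members. It was the only one of them called. MMP1, the main interstitial collagenase, had 13 counts in each shCTRL library and 39, 18 and 17 counts in the shCCN3 libraries. The groups did not overlap, but shCCN3 library 1 alone stood well above the rest, and the log2 fold change of 0.97 (SE 0.39) did not pass the threshold (edgeR adjusted p = 0.0858). MMP3, stromelysin-1, had 16, 27 and 19 counts and 22, 10 and 23 counts, and its groups overlapped. MMP7, MMP10 and MMP12 had between 0 and 10 counts in a library and were not tested, and MMP8, MMP20 and MMP27 were listed at 0 throughout.

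**Figure D2:**
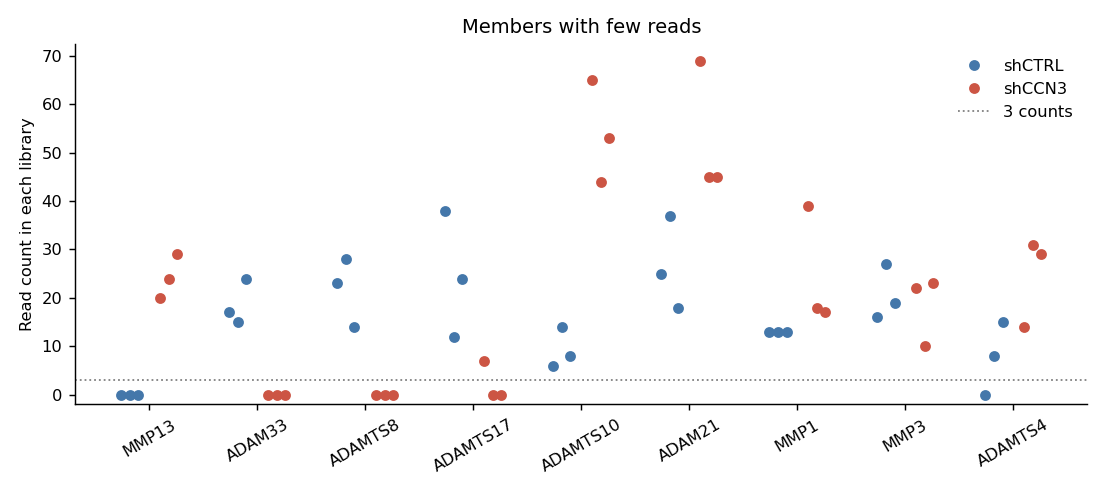
Read count in each library for 9 members with few reads, with shCTRL libraries in blue, shCCN3 libraries in red and a dotted line at 3 counts. MMP13 was seen in shCCN3 libraries only, ADAM33 and ADAMTS8 in shCTRL libraries only, and MMP3 overlapped between the groups.

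Among the inhibitors, TIMP3 alone was called. TIMP3 binds to the matrix and, beside MMPs, is known to block ADAM17 and the aggrecan-cutting ADAMTS4 and ADAMTS5. It was 564, 572 and 558 CPM in the shCTRL libraries and 361, 343 and 346 CPM in the shCCN3 libraries, with no overlap and little spread. The log2 fold change was -0.69 (SE 0.053, edgeR adjusted p = 1.45e-05). TIMP2 was 336, 343 and 309 CPM in shCTRL and 316, 280 and 304 CPM in shCCN3 libraries, and these overlapped (log2 fold change -0.13, edgeR adjusted p = 0.167). TIMP1 was 118, 125 and 141 CPM in shCTRL and 112, 149 and 112 CPM in shCCN3 libraries, and shCCN3 library 2 held the highest value of all 6 (log2 fold change -0.05, edgeR adjusted p = 0.802). TIMP4 was listed at 0 in every library. TIMP1 and TIMP3 lie inside SYN1 and SYN3 on the other strand, which had at most 9 and 15 counts in a library. Per kb of exon, the 3 expressed TIMPs summed to 264 ± 4.65 in shCTRL cells and 210 ± 9.65 in shCCN3 cells (SD, n = 3 each), and TIMP3 held 46.4 ± 1.03% and 36.3 ± 2.16% of that sum.

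**Figure D3:**
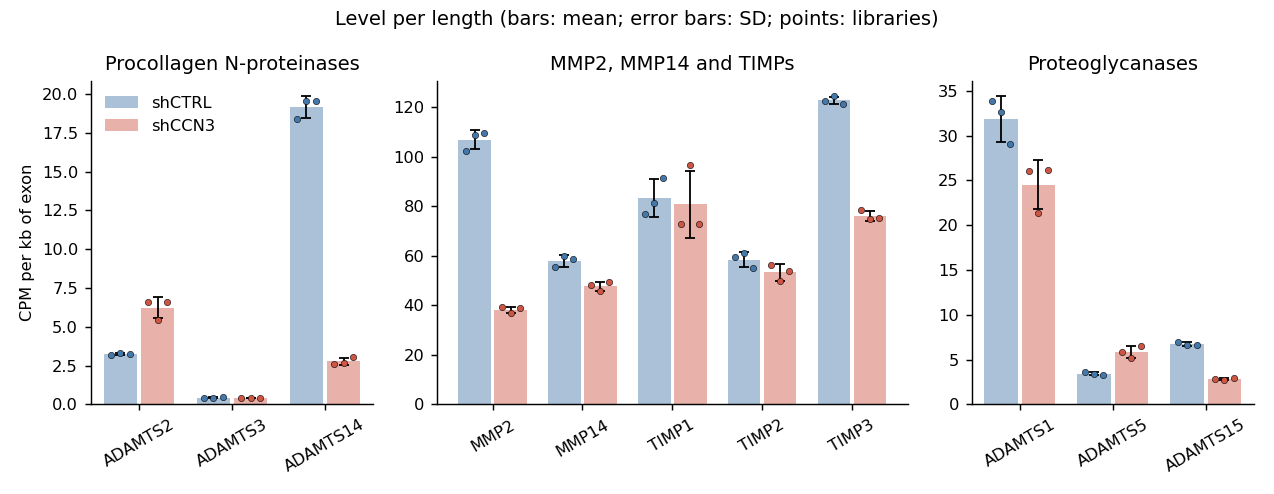
CPM per kb of exon for the procollagen N-proteinases, for MMP2, MMP14 and the expressed TIMPs, and for the proteoglycanases, with bars for the mean, error bars for the SD and points for the 3 libraries of each group. ADAMTS14, MMP2 and TIMP3 are lower and ADAMTS2 and ADAMTS5 higher in shCCN3 cells, while TIMP1 and TIMP2 overlap.

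The ADAMTSs held the largest share of called members, and among the 3 procollagen N-proteinases ADAMTS14 fell while ADAMTS2 rose. ADAMTS2, ADAMTS3 and ADAMTS14 remove the amino-terminal propeptide of fibrillar procollagens. ADAMTS14 was 96.8, 103 and 103 CPM in the shCTRL libraries and 13.9, 14.0 and 16.0 CPM in the shCCN3 libraries. This was 6.90-fold lower, with no overlap (log2 fold change -2.79, SE 0.077, edgeR adjusted p = 5.30e-08). ADAMTS2 was 27.7, 28.9 and 28.5 CPM in shCTRL and 57.8, 47.7 and 57.7 CPM in shCCN3 libraries. It rose 1.92-fold, again with no overlap (log2 fold change 0.94, SE 0.085, edgeR adjusted p = 3.90e-05). ADAMTS3 was low in both groups, at 3.07 ± 0.212 and 2.85 ± 0.0173 CPM (SD, n = 3 each), with a log2 fold change of -0.11 (edgeR adjusted p = 0.551).

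Per kb of exon, ADAMTS14 made up 83.7, 83.9 and 84.0% of the sum of these 3 genes in the shCTRL libraries and 27.3, 31.2 and 30.3% in the shCCN3 libraries. ADAMTS2 made up 14.5, 14.2 and 14.1% and then 68.6, 64.1 and 65.8%. The most abundant N-proteinase mRNA thus changed from ADAMTS14 to ADAMTS2 in every library, while the sum was 22.8 ± 0.777 CPM per kb in shCTRL and 9.41 ± 0.790 CPM per kb in shCCN3 cells (SD, n = 3 each), without overlap.

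The 250 bases before the start of these 3 genes and of TIMP3 are shown because the 3 proteases share a function but not a direction of change, and TIMP3 was the inhibitor called. They were taken from RefSeq on GRCh38.p14, chr10:70672256-70672505 on the plus strand, chr5:179345462-179345711 and chr4:72569222-72569471 on the minus strand and chr22:32801455-32801704 on the plus strand. They are written 5′ to 3′ along the gene, and capitals mark matches to the GC box, GGGCGG or CCGCCC on the other strand.
ADAMTS14: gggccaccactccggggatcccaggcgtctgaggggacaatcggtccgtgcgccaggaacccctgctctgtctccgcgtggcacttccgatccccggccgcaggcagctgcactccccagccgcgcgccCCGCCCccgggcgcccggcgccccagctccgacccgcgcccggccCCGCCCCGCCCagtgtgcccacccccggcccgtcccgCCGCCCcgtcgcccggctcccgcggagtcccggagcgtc
ADAMTS2: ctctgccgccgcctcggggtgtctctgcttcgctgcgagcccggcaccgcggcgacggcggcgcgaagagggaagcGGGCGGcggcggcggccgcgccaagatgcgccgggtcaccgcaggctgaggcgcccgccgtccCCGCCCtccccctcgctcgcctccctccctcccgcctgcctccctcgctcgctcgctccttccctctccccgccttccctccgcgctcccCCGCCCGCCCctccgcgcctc
ADAMTS3: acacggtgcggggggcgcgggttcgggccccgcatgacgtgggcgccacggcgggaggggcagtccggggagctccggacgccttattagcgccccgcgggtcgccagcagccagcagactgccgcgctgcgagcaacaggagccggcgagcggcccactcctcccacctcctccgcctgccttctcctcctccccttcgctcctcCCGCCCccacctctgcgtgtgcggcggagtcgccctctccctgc
TIMP3: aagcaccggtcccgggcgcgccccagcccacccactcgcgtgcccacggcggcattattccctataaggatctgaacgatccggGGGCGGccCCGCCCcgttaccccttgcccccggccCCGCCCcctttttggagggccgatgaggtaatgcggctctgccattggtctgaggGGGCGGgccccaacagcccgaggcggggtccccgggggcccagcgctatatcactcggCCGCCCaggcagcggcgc
ADAMTS14 and ADAMTS2 each held 4 matches, some of them overlapping, ADAMTS3 held 1 and TIMP3 held 5, so ADAMTS14, which fell, and ADAMTS2, which rose, had the same number. None of the 4 held the AP-1 site TGAGTCA, the TATA box TATAAA, the RUNX site TGTGGT or the ETS site AGGAAG on either strand.

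A promoter sequence was at hand for 39 of the 71 members. The GC box was present in 26 of them (66.7%), in 42.3% of all 27305 promoters and in 63.8% of the promoters of genes tested. It occurred in 8 of 8 members that were called lower, 2 of 4 called higher, 12 of 14 tested and not called, and 4 of 13 not tested. The TATA box occurred in 7 members (17.9%, beside 11.1% of all promoters), namely ADAMTS10 and the untested MMP7, MMP8, MMP10, MMP20, MMP21 and MMP26. The AP-1 site occurred in MMP7 alone (2.56% of members, 4.16% of all promoters), the RUNX site in 5 members (12.8% and 10.9%) and the ETS site in 9 (23.1% and 28.7%). MMP1, MMP2, MMP3 and MMP13 were not among the 39 and their promoters were not analysed here.

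The proteoglycanases, which cut versican, aggrecan and related matrix proteoglycans, also went both ways. ADAMTS15 had 2731, 2370 and 2531 counts in the shCTRL libraries and 1098, 870 and 1088 counts in the shCCN3 libraries. It fell 2.37-fold without overlap (log2 fold change -1.24, SE 0.068, edgeR adjusted p = 2.14e-06). ADAMTS8 had 23, 28 and 14 counts in shCTRL libraries and was listed at 0 in all shCCN3 libraries (edgeR adjusted p = 0.00135). With the 0 set to 3 counts per library, its mean was at least 6.85-fold lower, for counting error in that 0 only. ADAMTS8 passed the filter on low counts through the shCTRL libraries alone. ADAMTS8 and ADAMTS15 are neighbours on chromosome 11, from 130404923 to 130428609 on the minus strand and from 130448645 to 130476645 on the plus strand. Both fell, while the median log2 fold change over the 24 tested genes nearest to them was -0.01.

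ADAMTS1 and ADAMTS5 are neighbours too, at 26835755 to 26845409 and 26917922 to 26967088 on the minus strand of chromosome 21, and they moved in opposite directions. ADAMTS1, the most abundant proteoglycanase mRNA, fell from 225 ± 17.8 to 173 ± 19.3 CPM (SD, n = 3 each), by 0.38 on the log2 scale (edgeR adjusted p = 0.0119). This call depended on the libraries used, since the adjusted p was 0.0518 without shCTRL library 1 and 0.0565 without shCTRL library 2. ADAMTS5, the main aggrecanase, was 32.9, 30.5 and 29.7 CPM in shCTRL and 53.4, 47.0 and 58.6 CPM in shCCN3 libraries. It rose 1.71-fold without overlap (log2 fold change 0.77, SE 0.089, edgeR adjusted p = 0.000174). The median log2 fold change was 0.23 over tested genes on chromosome 21 and 0.25 over the 24 nearest to ADAMTS5, so part of the neighbourhood lay above 0. ADAMTS5 made up 8.13 ± 0.251% of the proteoglycanase sum per kb in shCTRL cells and 17.6 ± 0.573% in shCCN3 cells, and ADAMTS15 made up 16.1 ± 0.812% and 8.62 ± 0.683% (SD, n = 3 each). ADAMTS1 held most of that sum in both groups, 75.6 ± 1.01% and 73.7 ± 1.09%. ADAMTS4, the other well-known aggrecanase, had 0, 8 and 15 counts and 14, 31 and 29 counts, which overlapped and did not pass the threshold (edgeR adjusted p = 0.108). ADAMTS9 and ADAMTS20 were listed at 0 throughout.

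Both fibrillin-associated members rose. ADAMTS6 had 330, 317 and 259 counts in the shCTRL libraries and 761, 570 and 788 counts in the shCCN3 libraries. The mean level in CPM rose 2.45-fold (log2 fold change 1.29, SE 0.13, edgeR adjusted p = 6.04e-05). ADAMTS10 was rare, with 6, 14 and 8 counts in shCTRL and 65, 44 and 53 counts in shCCN3 libraries, and the groups were far apart (log2 fold change 2.58, SE 0.36, edgeR adjusted p = 0.000565).

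Of both members that cut COMP, the cartilage oligomeric matrix protein, ADAMTS12 fell from 125 ± 8.10 to 84.9 ± 10.0 CPM (SD, n = 3 each), by 0.56 on the log2 scale (edgeR adjusted p = 0.00141). ADAMTS7 was 9.99 ± 0.392 and 10.1 ± 1.32 CPM (edgeR adjusted p = 0.947). ADAMTS18 had 183, 117 and 121 counts in shCTRL and 71, 38 and 62 counts in shCCN3 libraries, and fell by 1.23 on the log2 scale (edgeR adjusted p = 0.00314), although the 24 tested genes nearest to it on chromosome 16 had a median of 0.62 on that scale. ADAMTS17 had 38, 12 and 24 counts in shCTRL and 7, 0 and 0 counts in shCCN3 libraries. Its log2 fold change was -3.27 (SE 0.88, edgeR adjusted p = 0.0184), but the adjusted p was 0.0796 without shCTRL library 1 and 0.0546 without shCCN3 library 3, and the log2 fold change ranged from -7.56 to -2.71 with 1 library left out. ADAMTS16 was 10.6 ± 0.955 and 8.52 ± 1.49 CPM (SD, n = 3 each, log2 fold change -0.31, edgeR adjusted p = 0.105), and it passed the threshold without shCCN3 library 3 (adjusted p = 0.0195). ADAMTS13, which cuts von Willebrand factor, had 8 to 29 counts and groups that overlapped, and ADAMTS19 was listed at 0.

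Of 11 tested ADAMs with a working protease site, 3 were called (27.3%, beside 33.4% of all genes tested). Most of the abundant ones were not among them. ADAM10, which sheds Notch, cadherins and CD44, was 116, 103 and 96.6 CPM in shCTRL and 113, 104 and 126 CPM in shCCN3 libraries, with overlapping groups (log2 fold change 0.12, SE 0.089, edgeR adjusted p = 0.332). ADAM17, the sheddase of TNF and several EGFR ligands, was 35.7, 31.2 and 31.6 CPM in shCTRL and 34.4, 28.2 and 37.0 CPM in shCCN3 libraries (log2 fold change 0.02, SE 0.10, edgeR adjusted p = 0.921). ADAM17 and ADAM9 overlap IAH1 and TM2D2 on the other strand, with 1852 to 2731 and 3529 to 4901 counts. ADAM12, the most abundant ADAM per length with 38.0 CPM per kb in shCTRL and 33.6 CPM per kb in shCCN3 cells, was 375 ± 25.4 and 331 ± 42.7 CPM, and ADAM9 was 236 ± 34.9 and 207 ± 41.7 CPM (SD, n = 3 each), with adjusted p of 0.189 and 0.375 from edgeR. For ADAM9, ADAM12 and ADAM17, shCCN3 library 2 held the lowest of the 6 values. ADAM19 had a log2 fold change of 0.20, just outside the threshold (edgeR adjusted p = 0.0504), and passed it under 5 alternatives, with DESeq2's size factors (adjusted p = 0.0490), upper-quartile scaling (0.0454), at least 10 counts in every library (0.0452), DESeq2 (0.0300) and without shCCN3 library 2 (0.00501).

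ADAM15, which carries an integrin-binding motif, was the one abundant ADAM called, from 191 ± 11.9 to 155 ± 6.54 CPM (SD, n = 3 each), a fall by 0.31 on the log2 scale (edgeR adjusted p = 0.00609). ADAM33 had 17, 15 and 24 counts in shCTRL libraries and was listed at 0 in every shCCN3 library (edgeR adjusted p = 0.00122). With the 0 set to 3 counts per library, its mean was at least 5.84-fold lower, for counting error in that 0 only. ADAM33 passed the filter on low counts through the shCTRL libraries alone. The median over the 24 tested genes nearest to ADAM33 on chromosome 20 was -0.61 on the log2 scale, so its surroundings were lower as well. ADAM21 had 25, 37 and 18 counts in shCTRL and 69, 45 and 45 counts in shCCN3 libraries, and rose with a log2 fold change of 1.05 (SE 0.32, edgeR adjusted p = 0.0342). The adjusted p of ADAM21 was 0.101 without shCTRL library 1, 0.103 without shCTRL library 3 and 0.125 without shCCN3 library 1, and ADAM20, which lies close by on chromosome 14, was not called (adjusted p = 0.149).

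Among the ADAMs without the zinc-binding motif of the protease site, ADAM32 fell by 0.96 on the log2 scale, from 2.78 ± 0.342 to 1.43 ± 0.0430 CPM (SD, n = 3 each; edgeR adjusted p = 0.00145). ADAM11, with 119, 91 and 88 counts in shCTRL and 60, 53 and 66 counts in shCCN3 libraries, fell by 0.65 (edgeR adjusted p = 0.0280), and its adjusted p was 0.101 without shCTRL library 1, 0.0714 without shCTRL library 2 and 0.0895 without shCCN3 library 1. ADAM23, a neuronal adhesion protein, was 7.83 ± 0.191 and 7.35 ± 0.885 CPM (edgeR adjusted p = 0.572). ADAM22 did not pass the filter, with 11, 6 and 8 counts in shCTRL and 0, 0 and 2 counts in shCCN3 libraries, and it lies on chromosome 7, where the median over tested genes was -0.43 on the log2 scale. ADAM8 and ADAM28, which belong to the ADAMs with the motif, had at most 24 counts in a library and overlapped between groups.

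Of the 27 members that were not tested, 19 were listed at 0 in all 6 libraries. Besides those named above, these were MMP21, MMP28, ADAM2, ADAM3A, ADAM3B, ADAM6, ADAM7, ADAM18, ADAM29 and ADAM30, and a count of 0 with a floor of 3 counts leaves room for up to 0.0435 to 0.0540 CPM in a library, for counting error only. MMP26 had 7 counts and ADAM5 had 6 counts in 1 shCTRL library each. MMP23A had 7 or 8 counts in every library, and its near-identical copy MMP23B, which was tested, had 6 to 20 counts (edgeR adjusted p = 0.496), so reads of this pair may be split between them.

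**Figure D4:**
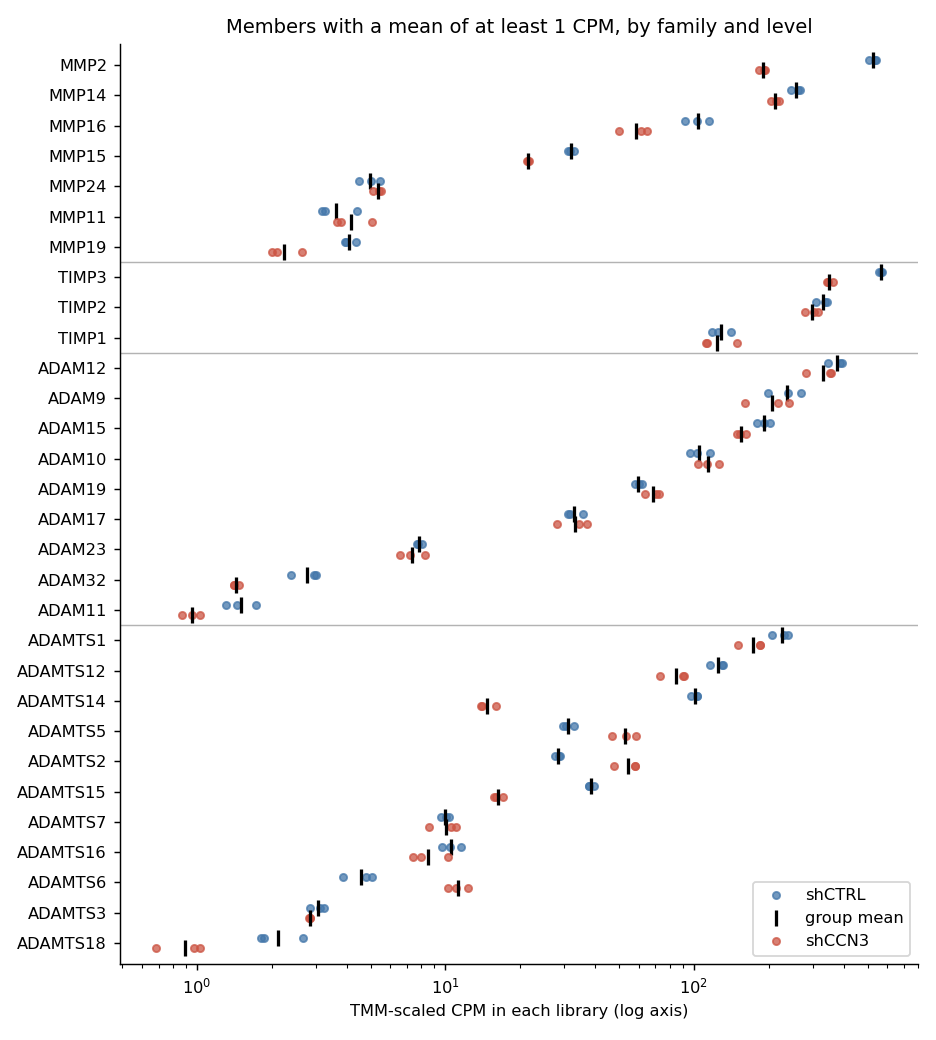
TMM-scaled CPM (log axis) in each library for the 30 members with a mean of at least 1 CPM, grouped by family and ordered by level, with shCTRL libraries in blue, shCCN3 libraries in red and black ticks for group means. MMP2, TIMP3, ADAMTS14 and ADAMTS15 show separate groups, whereas ADAM9, ADAM10, ADAM12, ADAM17 and TIMP1 overlap.

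The genes around these proteases were described from 8 lists with 80 genes in all. Of these, 60 were tested and 33 were called (55%, beside 33.4% of all genes tested), 14 higher and 19 lower. With a mean of at least 1 CPM, 30 of 52 were called (57.7%, beside 37.5% of all genes at that level). The lists were chosen with earlier results of these data known, so these shares are a description. The median log2 fold change of the tested genes was -0.07. All 5 activators tested were called. PLAU, urokinase, which makes plasmin, an activator of several pro-MMPs, fell from 1166 to 501 CPM, by 1.22 on the log2 scale (edgeR adjusted p = 6.70e-07). PLAT, PLAUR and PCSK7 fell by 0.48, 0.39 and 0.38, whereas FURIN, which removes the propeptide of MMP14 and many ADAMs, rose with a log2 fold change of 0.20 (edgeR adjusted p = 0.0302).

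Of 7 modulators tested, 2 were called (28.6%, beside 33.4% of all genes tested). TFPI2, a protease inhibitor of the matrix, was rare and fell by 1.18 on the log2 scale, from 0.916 to 0.406 CPM. LRP1, a receptor that takes up proteases with their inhibitors, fell by 0.59, from 210 to 139 CPM. RECK, which blocks MMPs at the cell surface, and BSG, known as the MMP inducer EMMPRIN, had log2 fold changes of 0.08 and -0.06 and were not called. Of the iRhoms, the tetraspanins and FRMD8, listed as partners of ADAM10 and ADAM17, 4 of 8 tested were called (50%). All 4 fell, TSPAN10 by 0.50, TSPAN33 by 0.44, FRMD8 by 0.30 and TSPAN14 by 0.23. RHBDF1 and RHBDF2, the iRhom genes themselves, were not called.

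Among 4 ADAMTS-like genes tested, ADAMTSL1 fell by 1.06 on the log2 scale and PAPLN, papilin, rose with a log2 fold change of 1.78. Of 6 related metzincins and enhancers, PAPPA2, which cuts IGF-binding proteins, rose with a log2 fold change of 3.10 from 0.836 to 7.18 CPM, and PCOLCE fell by 2.09 from 368 to 86.5 CPM (edgeR adjusted p = 5.09e-07). PCOLCE enhances the procollagen C-proteinase BMP1, whose own log2 fold change was 0.04 and was not called.

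Of 4 listed genes for fibrillar collagens, whose products the N-proteinases trim, 3 were called higher, beside 16.2% of all genes tested. COL2A1 was listed at 0 in all libraries. COL1A1 went from 36.1 to 97.3 CPM (log2 fold change 1.43) and COL3A1 from 0.474 to 12.0 CPM (log2 fold change 4.66, edgeR adjusted p = 6.47e-08), while COL1A2 remained below 1 CPM with a log2 fold change of 2.45. COL1A2 had 8, 8 and 11 counts in shCTRL and 48, 34 and 60 counts in shCCN3 libraries. It passed the filter on low counts through the shCCN3 libraries, where it was higher. VCAN, the proteoglycan versican, was 338 and 343 CPM and was not called. Among 13 substrates of ADAM10 and ADAM17 tested, 5 rose and 3 fell (61.5% called, beside 33.4% of all genes tested). The called ones with the largest fold changes were TNF, with 0 to 2 counts in shCTRL and 12 to 20 counts in shCCN3 libraries, and IL6R, which fell by 1.73 on the log2 scale. TNF passed the filter on low counts through the shCCN3 libraries alone, and its call takes no account of that selection. SDC1, CDH2, L1CAM and APP also rose, with log2 fold changes of 0.95, 0.87, 0.77 and 0.34, and MET and CD44 fell by 0.45 and 0.25.

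Of 13 AP-1, ETS and RUNX transcription factors known from MMP promoters, 3 rose and 4 fell (53.8% called, beside 33.4% of all genes tested). ETS1 rose most, with a log2 fold change of 0.88, followed by RUNX2 at 0.57 and JUND at 0.52. ETV1 fell by 1.30, FOSL1 by 0.48, JUN by 0.33 and ETS2 by 0.29. ETV1, PCOLCE, TFPI2, TSPAN33, MET and COL1A2 lie on chromosome 7, with its median of -0.43 on the log2 scale, and RUNX2 and TNF lie on chromosome 6, with a median of 0.34. APP lies on chromosome 21, and the 24 tested genes nearest to it had a median of 0.33, close to its own value. The corresponding medians were 0.60 for SDC1, -0.33 for JUN and -0.31 for PLAT. The part of the surroundings in the values of these genes was not tested.

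**Figure D5:**
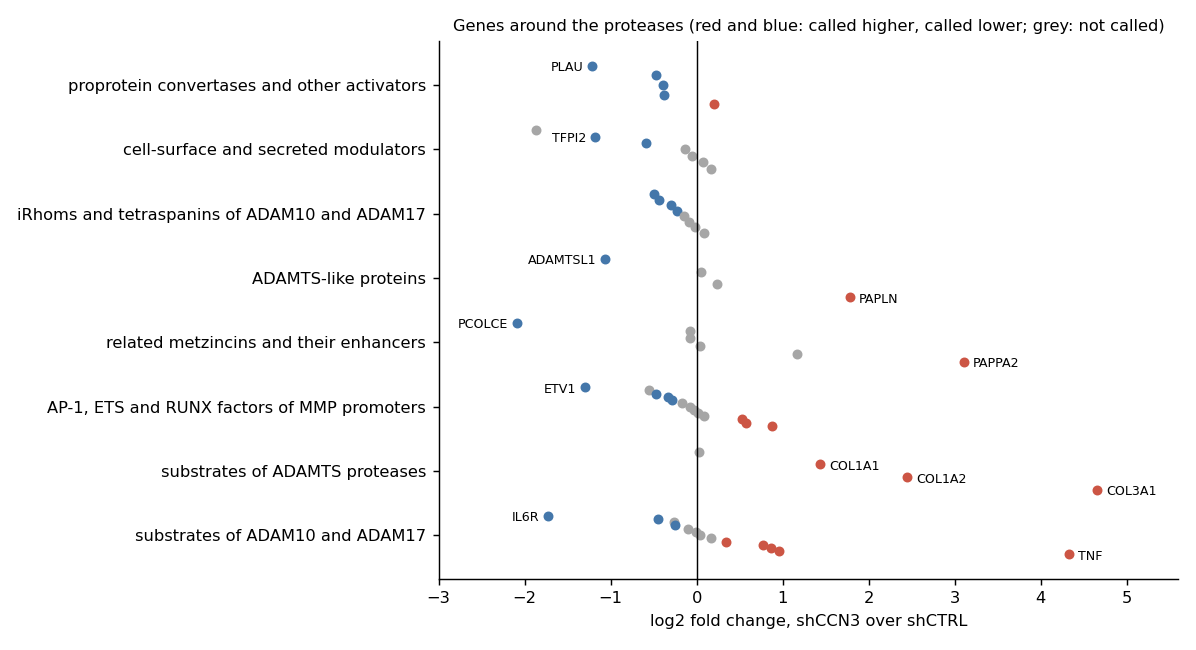
Log2 fold change (shCCN3 over shCTRL) of the 60 tested genes in 8 lists around the proteases, 1 point per gene, with called genes in red (higher) and blue (lower) and names for those called at 2-fold or more. All 5 activators are coloured, and the 3 collagen genes lie to the right.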

How the data were processed

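RNA of 3 shCTRL and 3 shCCN3 samples of Hs578T cells was sequenced from stranded poly(A) libraries. The authors deposited raw read counts per gene for 46427 genes, without normalization. The submitters' processing notes name Trimmomatic, HISAT2 2.1.0, StringTie, DESeq2 and GRCh38, but which tool gave the counts, the annotation and the use of strand were not given in the sources used here, so values of overlapping genes are uncertain. A 0 was taken as deposited.

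Counts were scaled with TMM factors and tested in edgeR 4.0.16 (R 4.3.3) with the quasi-likelihood test, shCCN3 against shCTRL, no block, after edgeR's filter by group, with Benjamini-Hochberg adjustment over 17419 genes and a threshold of 0.05. The step was tested on simulated data, with changes only in genes above a limit on the mean count and no outlying library. Calls at few reads were therefore not covered by it. CPM per kb used the union of exons in GENCODE release 29, for 70 of 71 members. Positions came from RefSeq on GRCh38.p14, where all 71 members matched by Gene ID. Promoter sequences, also from RefSeq on GRCh38.p14, were at hand for 39 of them. A group at 0 was set to 3 counts per library for bounds, and intervals of that kind cover counting error only.

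Values in every library were given for members called at 2-fold or more and for TIMP1 to TIMP4, MMP1, MMP2, MMP9, MMP14, ADAM10 and ADAM17, and for further members that a comparison turned on. The members and lists were chosen with earlier results of these data known, so the shares called are a description. Alternatives were DESeq2's size factors, upper-quartile scaling, no filter, at least 10 counts in every library, DESeq2 1.42.0, limma-voom (limma 3.58.1), the replicate number as a block, and each library left out.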

Additional observations from a re-analysis of the deposited data

How the results depend on the processing

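Over 13 alternatives, 19 to 24 members were called, and 19 of the 23 called members kept their direction and passed the threshold under every alternative that tested them. The exceptions were ADAM11, ADAM21, ADAMTS1 and ADAMTS17, given above with the libraries they rest on, and ADAM11 also missed the threshold with the replicate number as a block (adjusted p = 0.0689). With at least 10 counts in every library, 6 members rather than 11 were called at 2-fold or more, since the members with low counts were no longer tested. No pairing of the libraries by replicate number was seen, as the correlations of their deviations were 0.15, -0.07 and -0.26. With 3 libraries per group, these values cannot exclude a pairing. The block gave 23 called members, 12 of them at 2-fold or more, and 4887 called genes in all, and ADAMTS4 passed with it (adjusted p = 0.0464). With each library left out, 4181 to 7229 genes were called in all, the most without shCCN3 library 2. Among uncalled members, the sign changed when 1 library was left out for ADAM17 (log2 fold change -0.068 to 0.12), ADAM28 (-0.15 to 0.51), ADAM8 (-1.06 to 0.29), ADAMTS13 (-0.61 to 0.26), ADAMTS7 (-0.061 to 0.12), MMP3 (-0.31 to 0.16) and TIMP1 (-0.19 to 0.029). Members with few counts (MMP13, ADAM33, ADAMTS8, ADAMTS17, ADAMTS10 and ADAM21) have fold changes that rest on few reads.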
